A study of Mus musculus with 13 samples.

Results

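The mouse mitochondrial genome is listed with 37 genes in the deposited count table, and all 37 were taken by 1 rule, a gene symbol that starts with mt-, out of 56748 genes in all. They comprise 13 messenger RNA genes, 2 ribosomal RNA genes and 22 transfer RNA genes. Counts were found for 15 of them, namely the 13 messengers and both ribosomal RNAs, and these 15 also passed the filter on low counts. The 22 transfer RNA genes were at 0 counts in every library.

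RNA was measured in CD4 helper T cells sorted from the spleens of mice carrying the transplanted Vk12653 myeloma, as T cell receptor positive and CD4 positive cells without the Thy1.1 reporter of Foxp3 that both mouse lines carry. An antibody against NK1.1 was given at 50 µg on days −2 and 5 around tumour transfer on day 0, followed by 20 µg of agonist antibody against 4-1BB or of control IgG on days 10, 13 and 16, and spleens were taken on day 18. Eomes-GFP mice, which report the T-box factor Eomes, gave 3 GFP+ and 3 GFP− libraries after 4-1BB antibody and 2 libraries of undivided cells after IgG. Eomes-TKO mice, whose allele the labels do not describe, gave 2 libraries after 4-1BB antibody and 3 after IgG. Each GFP+ library carried a prefix that 1 GFP− library also carried, and such a pair was read as coming from 1 animal. Libraries were made from 11 ng of RNA after ribosomal RNA depletion and held 6080956 to 10881129 estimated counts. Eomes stood at 570 to 706 CPM in the GFP+ libraries and at 1.36 to 16.8 CPM in all others. The summed level of 5 T cell markers was 2190 to 4250 CPM, with each of the 5 detected in all 13 libraries. CPM are counts relative to the library total, scaled by the trimmed mean of M-values (TMM), and a 0 count allows up to 3 counts, or 0.276 to 0.493 CPM before that scaling.

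Mitochondrial DNA is a small circle whose strands are each read by the RNA polymerase Polrmt, with Tfam at the promoters, into long transcripts that are then cut, mostly at the transfer RNAs between the other genes. The messengers encode core membrane subunits of the respiratory chain: complex I (the Nd genes), complex III (mt-Cytb), complex IV (mt-Co1, mt-Co2 and mt-Co3) and the ATP synthase (mt-Atp6 and mt-Atp8). The ribosomal RNAs mt-Rnr1 and mt-Rnr2 form the small and large subunit of the mitochondrial ribosome, whose proteins come from the nucleus. In the GENCODE M21 annotation of GRCm38, 28 of the genes lie on the plus strand and 9 on the minus strand, the latter being mt-Nd6 and 8 transfer RNAs. Activated T cells are known to expand their mitochondria, and agonists of 4-1BB are known for raising mitochondrial capacity in CD8 cells.

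Several of these genes share sequence with another gene, so the printed stretches show which reads could be assigned to either. The last 43 bases of mt-Atp8 (chrM:7766-7969, plus strand, single exon) are also the first 43 bases of mt-Atp6 (chrM:7927-8607), and these shared bases are in capitals in the first pair. mt-Nd4l and mt-Nd4 share 7 bases in the same way. mt-Nd5 (chrM:11742-13565) and mt-Nd6 (chrM:13552-14070) share 14 bases on opposite strands. Coordinates and sequences are those of GENCODE M21 on GRCm38, 5′ to 3′ along the gene.
mt-Atp8 end: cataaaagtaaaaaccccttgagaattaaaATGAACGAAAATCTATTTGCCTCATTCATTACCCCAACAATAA
mt-Atp6 start: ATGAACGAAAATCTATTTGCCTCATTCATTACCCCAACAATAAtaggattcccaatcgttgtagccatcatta

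A stretch of the nuclear genome, chr1:24611535-24616197 on the minus strand, holds 7 annotated pseudogenes that copy mitochondrial genes. Gm28661 matched mt-Co2 over 681 bases, Gm10925 matched mt-Atp6 over 678, Gm28437 matched mt-Co3 over 783 and Gm10222 matched mt-Nd4l over 294, each without a difference. Gm28438 differed from mt-Nd3 at 1 base of 345, T3C, counted from 1 at the first base of the mitochondrial gene. Gm28439 holds 876 identical bases of mt-Nd4. Gm29216 holds the last 492 bases of mt-Co1 with 6 differences, T1056A, C1057T, A1059G, A1060G, C1062A and A1066T, all near its start. The lines show both edges, with the differing bases in capitals.
mt-Nd3: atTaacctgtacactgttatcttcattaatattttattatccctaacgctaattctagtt
Gm28438: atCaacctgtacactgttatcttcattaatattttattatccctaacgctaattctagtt
mt-Co1: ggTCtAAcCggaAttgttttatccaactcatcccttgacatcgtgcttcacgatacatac
Gm29216: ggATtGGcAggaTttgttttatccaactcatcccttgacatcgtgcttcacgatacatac

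The estimated counts were divided between these pairs. For genes copied over nearly their whole length, most of the summed counts were listed on the nuclear copy. The median over the 13 libraries was 72.5% on the copy for mt-Atp6 (range 58.4% to 80.2%), 69.4% for mt-Co2 (59.5% to 74.1%), 64.2% for mt-Co3 (49.4% to 72.9%) and 62.1% for mt-Nd3 (47.4% to 80.9%). For mt-Nd4l it ran from 0% to 100% with a median of 72.7%. By contrast, the copy held a median of 1.94% for mt-Co1 and 1.09% for mt-Nd4, of which only part is copied. The level of the mt- row alone is therefore uncertain for the 5 genes copied nearly whole, and for most values of these the sum of gene and copy is given beside it. The sum cannot tell apart RNA of the mitochondrion from RNA of the copy. Another 5 annotated copies on other chromosomes reached at most 5.67 CPM.

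**Figure D1:**
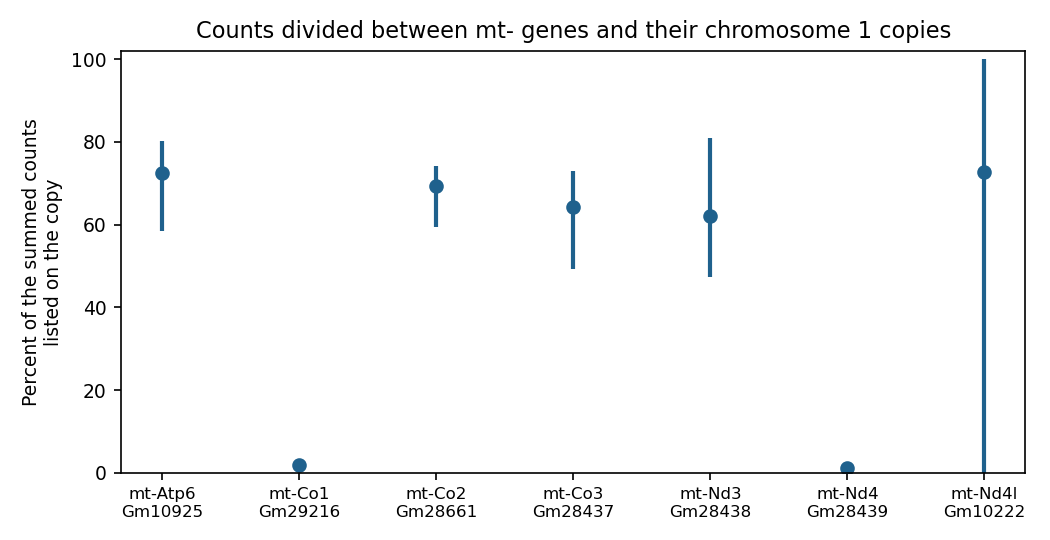
Percent of the summed estimated counts of a mitochondrial gene and its chromosome 1 copy that was listed on the copy. Points are medians and lines the range over 13 libraries. For 5 of the 7 pairs the median lies between 62.1% and 72.7%, and for mt-Co1 and mt-Nd4 at 1.94% and 1.09%.

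Mitochondrial genes took 0.838% to 2.54% of the counts of a library. The share was 1.44%, 0.838% and 1.67% in the GFP+ libraries and 1.92%, 2.21% and 1.44% in the GFP− libraries. It was 1.84% and 2.54% in Eomes-GFP mice given IgG. Eomes-TKO mice had 1.63% and 2.13% after 4-1BB antibody and 2.01%, 2.03% and 1.49% after IgG. GFP+ cells included the lowest share and had the lowest mean, 1.31% ± 0.428 (SD, n = 3), against 1.86% ± 0.388 (n = 3) in GFP− cells and 2.19% ± 0.501 (n = 2) in undivided IgG cells. The 2 Eomes-TKO groups stood at 1.88% ± 0.354 (n = 2) and 1.84% ± 0.307 (n = 3). GFP+ replicate 3 lay above GFP− replicate 3, and the undivided IgG libraries lay within or just above the GFP− range, so only GFP+ and IgG of Eomes-GFP mice were without overlap. Adding the chromosome 1 copies gave 1.00% to 3.26% over the libraries. In these bulk samples fewer mitochondria-rich cells and less mitochondrial RNA per cell cannot be told apart.

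**Figure D2:**
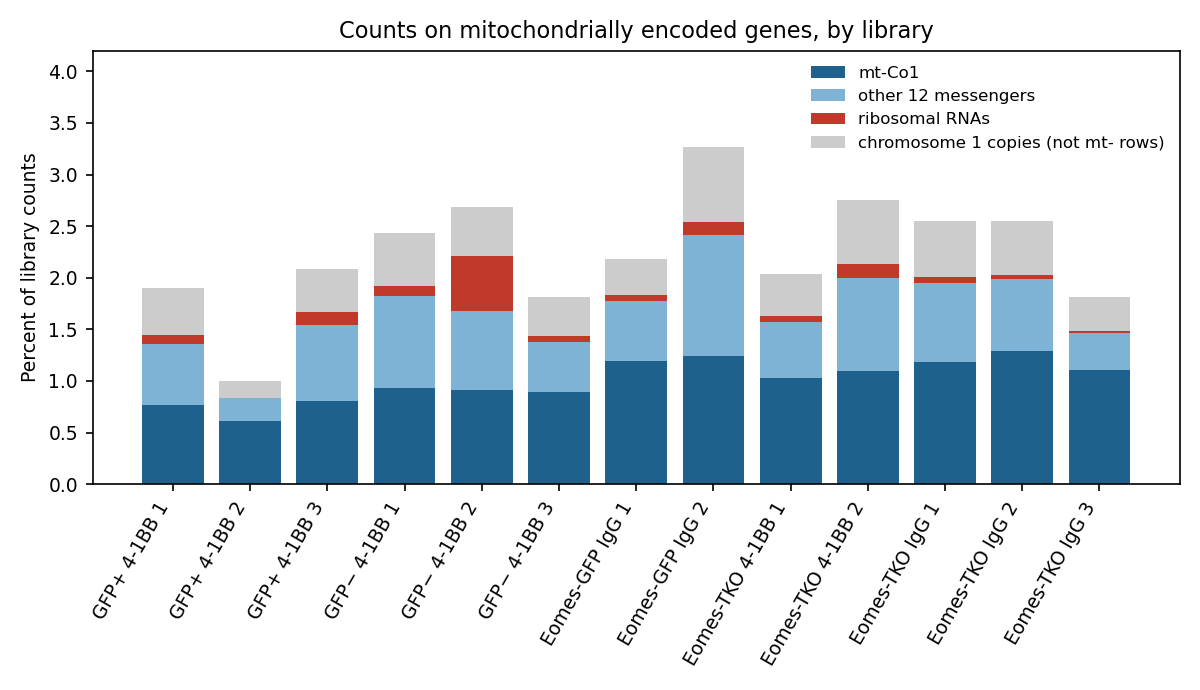
Percent of all estimated counts of each of 13 libraries on mt-Co1, the other 12 messengers, the 2 ribosomal RNAs and, in grey, the chromosome 1 copies, which are not mt- rows. The mt-Co1 segment runs from 0.608% to 1.29%, and the ribosomal segment is tallest in GFP− replicate 2 at 0.527%.

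mt-Co1, the catalytic subunit of complex IV (chrM:5328-6872), was the most abundant member. Per kilobase it averaged 6494 CPM, against 3372 CPM for mt-Co3, 2624 for mt-Atp6 and 2496 for mt-Co2 with their copies added, and 1155 for mt-Cytb. The remaining complex I messengers averaged 430 (mt-Nd2) to 828 (mt-Nd1) CPM per kilobase, except mt-Nd3 at 748 and mt-Nd4l at 113.5 with copies and mt-Nd6 at 33.8. mt-Atp8 averaged 242 and the ribosomal RNAs 641.5 (mt-Rnr1) and 309 (mt-Rnr2). The low standing of the ribosomal RNAs was measured in libraries depleted of ribosomal RNA. mt-Co1 alone took 51.4% to 75.8% of all counts on the 13 messengers, or 40.6% to 62.8% with the copies added.

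mt-Co1 was lower in GFP+ cells than in every other library. Its level was 8030.3, 6427 and 8367 CPM in GFP+ cells and 9477, 9450.4 and 8743 CPM in the GFP− cells with the same prefixes. It was 11614 and 12468 CPM in undivided IgG cells of Eomes-GFP mice. In Eomes-TKO mice the treated libraries had 9803 and 11048 CPM, and the IgG libraries 11598, 12892 and 10505 CPM. The 3 GFP+ values lay below all of the other 10 libraries, the GFP− values came next, and the IgG and Eomes-TKO libraries, from 9803 CPM upwards, partly overlapped one another.

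The 7 comparisons were tested with the quasi-likelihood test of edgeR over 14059 genes, and called means an adjusted p under 0.05 after Benjamini-Hochberg adjustment. Against undivided IgG cells, mt-Co1 fell in GFP+ cells, from 12041 ± 604 (SD, n = 2) to 7608 ± 1037 CPM (n = 3), a log2 change of −0.66 ± 0.13 (SE), with an edgeR adjusted p = 0.001003. Of the 15 tested members it was the 1 called there, where 34.2% of all genes were called (18.8% higher and 15.4% lower). Between Eomes-TKO and GFP+ cells, both after 4-1BB antibody, mt-Co1 was higher in the Eomes-TKO cells, at 10426 ± 881 CPM (n = 2), by 0.45 ± 0.13 on the log2 scale (edgeR adjusted p = 0.01301), again 1 of 15 members against 34.6% of all genes (15.7% higher and 18.8% lower). That call was lost without Eomes-TKO 4-1BB replicate 2 (0.36, edgeR adjusted p = 0.0921) and when the 2 groups were fitted alone (edgeR adjusted p = 0.07283). These 2 comparisons and that of GFP+ with GFP− cells share the GFP+ libraries and are not independent of each other. The comparison with IgG also differs in the sort, since only treated cells were divided by GFP.

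Within the treated Eomes-GFP animals, no member was called between GFP+ and GFP− cells by edgeR, against 37.1% of all genes. Of the 15 members, 1 had an unadjusted p under 0.05, mt-Co1, with 7608 ± 1037 against 9224 ± 416 CPM (n = 3 each), groups that did not overlap, and a log2 difference of −0.28 ± 0.12 (edgeR adjusted p = 0.07436). DESeq2 and limma-voom each called 1 member, again mt-Co1, with adjusted p of 0.04751 and 0.04686. Of all genes they called 5150 and 5197, in that order. Without GFP+ replicate 2, discussed further on, the difference of mt-Co1 was −0.20 (edgeR adjusted p = 0.1821), and without GFP+ replicate 3 it was −0.39 and called (0.03533). The call in this pair of groups thus changed with the tool and with 1 library.

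In the other 4 comparisons no member was called by edgeR, DESeq2 or limma-voom. Of all genes DESeq2 called 5 to 282 there, and limma-voom 0 to 41. For Eomes-TKO against Eomes-GFP under IgG, edgeR called 0.0142% of all genes, and no member had an unadjusted p under 0.05. For 4-1BB antibody against IgG in Eomes-TKO mice and for Eomes-TKO against GFP− cells after 4-1BB antibody it called 0.0427% of all genes each (in the latter 0.00711% higher and 0.0356% lower), and again no member had an unadjusted p under 0.05. For GFP− cells against undivided IgG cells it called 0.761% (0.654% higher and 0.107% lower), and 1 member, mt-Co1, had an unadjusted p under 0.05. There mt-Co1 differed by −0.38 ± 0.13 on the log2 scale without overlap of the groups (edgeR adjusted p = 0.279). mt-Co3 did not overlap there either (−0.49 ± 0.23, edgeR adjusted p = 0.5723). In each other comparison of these 4, 1 of the 15 members did not overlap. The share of all genes without overlap was not counted in any comparison. Between the genotypes under IgG, mt-Co1 differed by −0.05 ± 0.13 (edgeR adjusted p = 1) and was 11665 ± 1195 CPM in Eomes-TKO cells. When the filter on low counts was left out, the edgeR fit called 2 to 13 of the 15 members in each of the 7 comparisons. Over all 23638 genes then tested it called from 112 to 5423 in a comparison. The median SE of the members was 0.135 in place of 0.835. The cause was not tested, and the spread between replicates given further on is that of the libraries themselves.

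Markers of other cells moved with part of this order. The summed level of 5 myeloid markers was 7.90 to 39.9 CPM in GFP+ cells, 7.32 to 23.8 in GFP− cells and 7.65 to 9.18 in Eomes-TKO cells after 4-1BB antibody. It was 0.783 to 1.02 and 0.730 to 2.13 CPM in the Eomes-GFP and Eomes-TKO IgG groups. The sums were highest in treated groups, all 5 markers were detected in some library, and their part in the mt-Co1 differences was not tested. The sum of 2 NK cell markers rose in the order of the mt-Co1 groups only up to the IgG groups. It was 0.393 to 0.554 CPM in GFP+ cells, 0.813 to 1.95 in GFP− cells and 3.75 to 4.38 in treated Eomes-TKO cells. Under IgG it was 6.66 to 6.99 in Eomes-GFP cells and 6.57 to 13.0 in Eomes-TKO cells, ranges that overlapped. Mean mt-Co1 was 12041 and 11665 CPM in these IgG groups, taken in the same order. Nearly all of the NK sum was Klrb1c, the gene of NK1.1, while Ncr1 was at 0 in 12 of the 13 libraries. The 4 markers of plasma cells or myeloma summed to 3.96 to 4.68 CPM in treated Eomes-TKO cells, most of it Jchain, and to 0.127 to 0.685 CPM in the other groups, with Tnfrsf17 at 0 in all libraries. The 5 T cell markers summed to 3670 to 4250 CPM in GFP+ cells against 2190 to 3030 CPM in all other libraries. The part of the NK, plasma and T cell markers was not tested either. Sums of 2 CD8 markers (3.46 to 12.3 CPM) and 6 red cell markers (0 to 8.77 CPM) overlapped between GFP+ and GFP− cells. Of the CD8 markers, Cd8b1 alone did not overlap, at 1.11 to 5.59 against 5.96 to 9.87 CPM. Foxp3, the regulatory T cell marker, was at 0.393 to 0.554 CPM in GFP+ cells, near the floor, and at 0.636 to 2.65 CPM in the other libraries. The part of Cd8b1 and Foxp3 was not tested.

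mt-Co3, another core subunit of complex IV (chrM:8607-9390), was also lowest in GFP+ cells once the copy Gm28437 was added. The deposited row gave 546, 945 and 949 CPM in GFP+ cells, 846, 916 and 878 in GFP− cells, 1445 and 1035 in undivided IgG cells, 805 and 966 in treated Eomes-TKO cells and 1079, 1365 and 929 in Eomes-TKO IgG cells. With the copy the values became 2012, 1865 and 2199 CPM in GFP+ cells, 2376.5, 2528 and 2449.9 in GFP− cells and 2900.3 and 3271 in undivided IgG cells. Treated Eomes-TKO cells then had 2376 and 3112 CPM and Eomes-TKO IgG cells 3006, 3575 and 2693 CPM. On the deposited row GFP+ replicate 1 stood apart below the rest, and the GFP+ values overlapped those of all groups but undivided IgG cells. With the copy all 3 GFP+ values lay below the other 10 libraries.

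The deposited mt-Co3 row gave a log2 difference of −0.61 ± 0.23 between GFP+ and undivided IgG cells (edgeR adjusted p = 0.05618). With the copies added, mt-Co3 was called at −0.64 ± 0.14 (edgeR adjusted p = 0.00239), and also between treated Eomes-TKO and GFP+ cells at 0.47 ± 0.14 (0.01611). GFP+ against GFP− cells gave −0.31 ± 0.13 (edgeR adjusted p = 0.06721). With the copies added, mt-Co1 gave −0.69 (edgeR adjusted p = 0.000806), 0.49 (0.009301) and −0.30 (0.05502) in the same order of comparisons. The deposited row of mt-Co3 also passed in the comparison with undivided IgG cells without GFP+ replicate 2 (−0.76, edgeR adjusted p = 0.04925), without GFP+ replicate 3 (−0.76, 0.0367) and without IgG replicate 2 (−0.83, 0.04331). It did not pass without GFP+ replicate 1 (−0.41, edgeR adjusted p = 0.1023) or without IgG replicate 1 (−0.38, 0.3714).

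**Figure D3:**
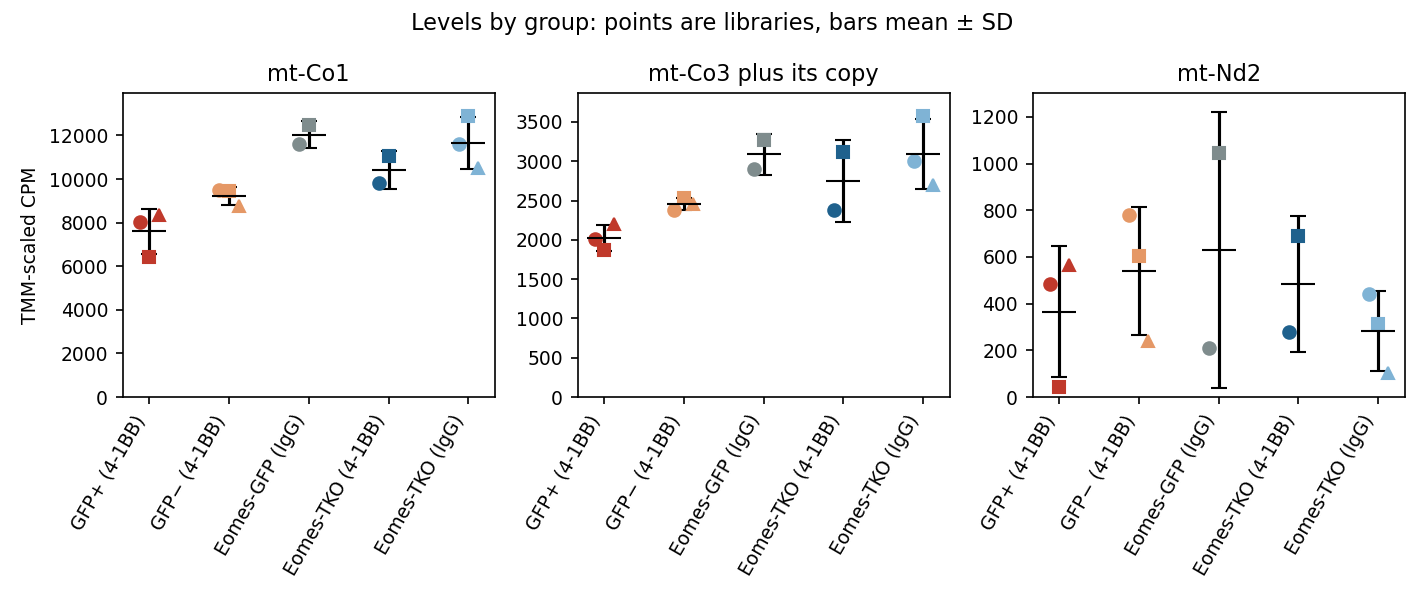
TMM-scaled CPM of mt-Co1, of mt-Co3 with the copy Gm28437 added, and of mt-Nd2 in 5 groups. Points are libraries (circle, square and triangle for replicates 1 to 3) and bars are mean ± SD. The 3 GFP+ libraries are the lowest of 13 for mt-Co1 and for mt-Co3 with its copy, while mt-Nd2 ran from 45.0 to 1047 CPM and its groups overlap.

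Most other members varied widely between replicates. The SD of log2 CPM within groups was 0.1398 for mt-Co1, below the median of 0.177 over 8772 nuclear genes with a mean of at least 10 CPM, and 31.05% of those genes varied less. It was 0.303 for mt-Co3 as deposited and 0.161 with the copy. For every other messenger with counts in all libraries it was higher than in over 95% of nuclear genes, from 0.475 (mt-Cytb) over 0.619 (mt-Co2), 0.626 (mt-Nd6) and 0.737 (mt-Nd3) to 1.41 (mt-Nd2) and 1.59 (mt-Atp8). With the copies added it was 0.6665 for mt-Co2, 0.4837 for mt-Nd3 and 1.079 for mt-Atp6, against 1.096 as deposited for the last. Between the highest and the lowest library mt-Co1 differed 2.01-fold, mt-Cytb 4.13-fold, mt-Nd1 9.30-fold, mt-Nd4 11.0-fold, mt-Nd5 11.8-fold, mt-Nd2 23.2-fold and mt-Atp8 23.4-fold. Messengers described as pieces of the same long transcripts were thus far from moving in proportion: the ratio of mt-Co1 to mt-Nd2 counts ran from 11.9 to 143.

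**Figure D4:**
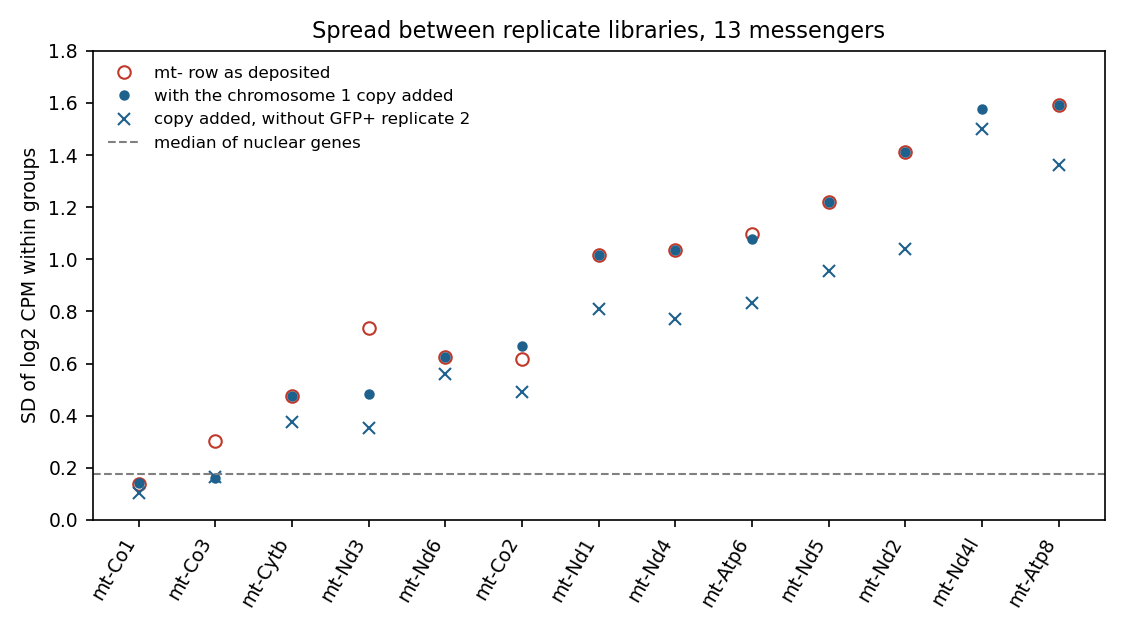
SD of log2 CPM between replicate libraries within groups for 13 messengers. Red circles are the deposited rows, blue points have the chromosome 1 copy added, and crosses also leave out GFP+ replicate 2. mt-Co1, and mt-Co3 with its copy (0.161), lie near the dashed median of nuclear genes at 0.177, while mt-Co3 as deposited (0.303) and all other messengers lie above it. mt-Nd4l has no red circle because it was at 0 in 5 libraries.

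The extremes came mostly from a pair of libraries. GFP+ replicate 2 was the lowest of 13 in 9 of 12 messengers ranked, leaving out mt-Nd4l, and IgG replicate 2 of the Eomes-GFP mice was the highest in 10 of 12. Eomes-TKO IgG replicate 3 and GFP− replicate 3 were each among the lowest 4 libraries for 10 of 12 messengers. Low and high libraries therefore occurred inside the same group. Without GFP+ replicate 2 the fold between extremes fell to 10.4 for mt-Nd2, 14.4 for mt-Atp8, 5.71 for mt-Nd4 and 7.497 for mt-Nd5, and the within-group SD of mt-Nd2 was 1.04.

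On the deposited row GFP+ replicate 2 did not stand apart for mt-Co3, which it held at 945 CPM, close to GFP+ replicate 3. With the copy added it was the lowest of 13 libraries, at 1865 CPM against 2012 and 2199 CPM in the other GFP+ libraries. mt-Co1 made up 72.7% of its messenger counts and 75.8% of those of Eomes-TKO IgG replicate 3, against 51.4% to 67.5% in the other 11 libraries. The calls that rest on GFP+ libraries were recomputed without it: mt-Co1 against undivided IgG cells gave −0.58 (edgeR adjusted p = 0.002038) and treated Eomes-TKO against GFP+ cells 0.38 (0.02616). Over the 13 messengers with copies added, GC content gave a Spearman coefficient of −0.324 with the within-group SD, or −0.22 without GFP+ replicate 2. These points share the same libraries. mt-Co1 (39.9% GC) varied least and mt-Atp8 (31.9%) most, while mt-Nd4l, with 41.1% GC and few counts, varied nearly as much as mt-Atp8.

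**Figure D5:**
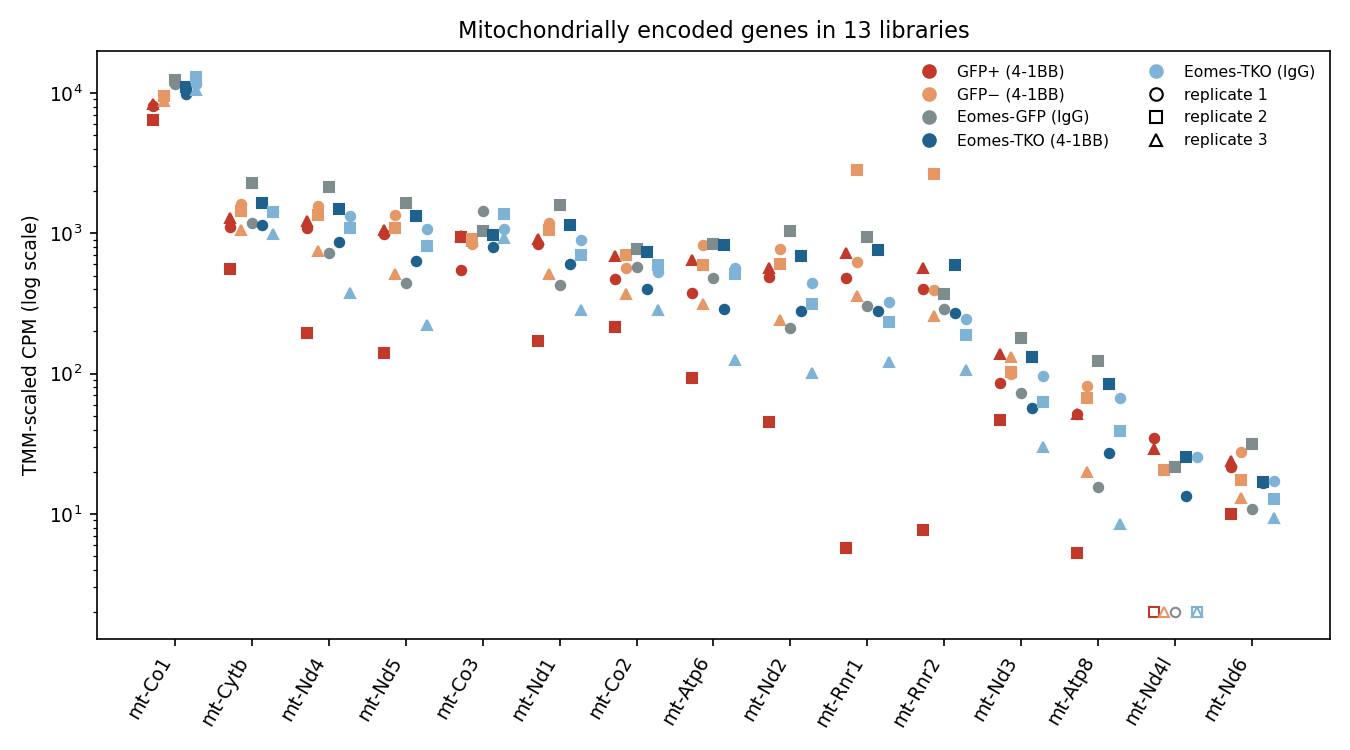
TMM-scaled CPM on a log axis for the 15 mitochondrial genes with counts, ordered by median. Colours are groups, and circles, squares and triangles are replicates 1 to 3. Open symbols at the bottom mark libraries with 0 counts of mt-Nd4l. GFP+ replicate 2, the red square, is the lowest point for both ribosomal RNAs and for 9 messengers, while the mt-Co1 points lie close together.

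For complex I as a group, no messenger was called in any comparison. mt-Nd1, mt-Nd2, mt-Nd4 and mt-Nd5 had medians over 13 libraries of 836, 440.3, 1096 and 996 CPM, and between GFP+ and undivided IgG cells their log2 differences were −0.67 ± 0.83, −0.78 ± 1.10, −0.77 ± 0.83 and −0.52 ± 0.98. With errors of that size a difference of 2-fold in these genes was not detectable in these libraries. mt-Nd3 ranged from 29.9 to 181 CPM as deposited and from 105.0 to 372 with its copy. mt-Nd4l was at 0 counts in 5 libraries and at 13.4 to 35.1 CPM in the other 8, but with its copy at 4.65 to 93.4 CPM in all 13.

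mt-Nd6, a complex I subunit and the only messenger gene on the minus strand, was among the least abundant. It was at 21.6, 9.95 and 24.0 CPM in GFP+ cells, 27.4, 17.4 and 12.9 in GFP− cells and 10.8 and 31.4 in undivided IgG cells. The treated Eomes-TKO libraries had 16.7 and 16.8 CPM, and the Eomes-TKO IgG libraries 17.2, 12.7 and 9.30 CPM. Highest and lowest came from IgG libraries and differed 3.38-fold, and the groups overlapped in each of the 7 comparisons. Whether the counting used strand is not given in the sources used here, so reads of mt-Nd6 and of transcripts from the opposite strand cannot be told apart. The largest difference in a test was −0.70 ± 0.48, between Eomes-TKO and Eomes-GFP cells under IgG (edgeR adjusted p = 1).

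The ATP synthase genes and mt-Cytb, the core of complex III, gave no call either. mt-Atp6 ran from 92.4 to 833 CPM as deposited and from 336 to 3343 with Gm10925, and mt-Atp8 from 5.24 to 123 CPM. mt-Cytb, which has no listed copy, ran from 553 to 2282 CPM, and between GFP+ and undivided IgG cells it differed by −0.82 ± 0.38 (edgeR adjusted p = 0.1265). mt-Co2, the third core subunit of complex IV, ran from 216 to 770.0 CPM and from 587 to 2665 with Gm28661. Its highest and lowest library differed 4.54-fold with the copy, against 1.92-fold for mt-Co3 and 2.00-fold for mt-Co1.

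Over the 15 tested members the median log2 difference was −0.49 between GFP+ and GFP− cells, −0.62 between GFP+ and undivided IgG cells and 0.41 between treated Eomes-TKO and GFP+ cells. Over all genes tested these medians were 0.02, 0.00 and 0.00. Without GFP+ replicate 2 the medians of the members were −0.11, −0.25 and −0.001, so 1 library set most of their size. Without Eomes-GFP IgG replicate 2 the second became 0.32, and without treated Eomes-TKO replicate 2 the last became −0.21. For Eomes-TKO against Eomes-GFP cells under IgG the median of −0.70 turned to 0.10 without Eomes-GFP IgG replicate 2. For 4-1BB antibody against IgG in Eomes-TKO mice, 0.48 turned to −0.14 without treated replicate 2. For GFP− against undivided IgG cells, −0.19 turned to 0.825 without IgG replicate 2. The sign of the median between GFP+ and GFP− cells stayed negative without each of their 6 libraries (−0.83 to −0.11), while in the other comparisons named here it turned with 1 library.

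The ribosomal RNAs varied most. mt-Rnr1 was at 479, 5.76 and 728 CPM in GFP+ cells, 626, 2803 and 356 in GFP− cells, 306 and 935 in undivided IgG cells, 281 and 764 in treated Eomes-TKO cells and 327, 232 and 121 in Eomes-TKO IgG cells. mt-Rnr2 was at 404, 7.72 and 564 CPM, then 394, 2665 and 257, then 289 and 372, then 272 and 594, then 245, 189 and 107 in the same order of groups. GFP+ replicate 2 was lowest and GFP− replicate 2 highest for both, and these 2 libraries were read as the same animal.

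The 2 extreme libraries differed 487-fold for mt-Rnr1 and 345-fold for mt-Rnr2, where GFP+ replicate 2 held 44 and 59 counts. Without it the highest and lowest still differed 23.2-fold and 24.9-fold. Rn18s-rs5, a nuclear locus of cytosolic 18S ribosomal RNA that was picked after its values were seen, was also lowest in GFP+ replicate 2 at 28.8 CPM and highest in GFP− replicate 2 at 34790 CPM, with 1696 to 8697 CPM in the other 11 libraries. The long nuclear RNA Malat1 ran only from 11000 to 22420 CPM, and the small nuclear RNA Rn7sk from 3529 to 8936 CPM. The part of ribosomal RNA depletion in these values was not tested. Group differences of the ribosomal RNAs were not called, with −1.64 ± 1.34 for mt-Rnr1 between GFP+ and GFP− cells (edgeR adjusted p = 0.3848).

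Nuclear genes that copy, read and translate mitochondrial DNA were read against the share of all genes called between GFP+ and GFP− cells. Of 24 genes for processing and stability of mitochondrial RNA, 5 fell and 0 rose in GFP+ against GFP− cells. Over all genes 16.5% fell and 20.7% rose there, so the falls were near the share of all genes. Fewer of the list were called in all than the 37.1% over all genes, and the list's median was −0.26. Lrpprc, which stabilises mitochondrial messengers, fell from 61.6 ± 1.58 to 40.4 ± 4.72 CPM (n = 3 each), a log2 change of −0.61 ± 0.11 (edgeR adjusted p = 0.0004011). The pseudouridine synthase Pus1 (−0.77), the oligoribonuclease Rexo2 (−0.67) and Tbrg4 (−0.49), of the FASTK family of mitochondrial RNA-binding proteins, fell as well (edgeR adjusted p from 0.00353 to 0.005419). Against undivided IgG cells 7 of the 24 fell and 0 rose, with 15.4% of all genes lower, and Lrpprc fell by 0.81 on the log2 scale (edgeR adjusted p = 7.868e-05). Treated Eomes-TKO cells had 6 of the 24 higher and 0 lower than GFP+ cells, where 15.7% of all genes were higher and 18.8% lower. Without GFP+ replicate 2 the counts in these comparisons, taken in the order given, were 5, 6 and 4.

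Among 20 genes of mitochondrial DNA maintenance and transcription, 3 rose and 6 fell in GFP+ against GFP− cells, where 20.7% of all genes rose and 16.5% fell. Polrmt fell by 0.41 on the log2 scale (38.9 ± 4.66 to 29.2 ± 4.21 CPM, n = 3 each, edgeR adjusted p = 0.03148), while Tfam differed by 0.17 ± 0.12 and was not called (0.3254). The mitochondrial topoisomerase Top1mt (−1.57) and the helicase Twnk (−0.99) fell, and the nuclease-helicase Dna2, which also acts in nuclear replication, rose by 1.70 (edgeR adjusted p = 0.0001717). Mterf4, a partner of ribosome assembly, rose by 0.65 (edgeR adjusted p = 0.01984). The members that moved went both ways, and without GFP+ replicate 2 the counts were 2 and 6.

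Of 8 tested biogenesis regulators, 3 fell and 1 rose in the same comparison, with the same shares of all genes (20.7% rose and 16.5% fell). Myc fell from 88.9 ± 9.71 to 23.7 ± 2.22 CPM (−1.91, edgeR adjusted p = 3.163e-05), and the coactivators Pprc1 and Ppargc1b fell by 1.19 and 1.02 on the log2 scale. The nuclear receptor Esrra rose by 0.50 (edgeR adjusted p = 0.00436), and Ppargc1a, the best known coactivator of the family, did not pass the filter on low counts. Of 28 translation factors and mitochondrial transfer RNA ligases, 5 fell and 1 rose, fewer in all than the 37.1% called over all genes, with Ears2, the ligase for glutamate, falling from 25.5 ± 2.19 to 8.85 ± 0.665 CPM (−1.53, edgeR adjusted p = 7.119e-06). Aars2 (−0.87), Nars2 (−0.62) and Tars2 (−0.51), ligases for alanine, asparagine and threonine, fell too. Without GFP+ replicate 2 the counts of this list were 0 risen and 5 fallen.

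The last lists hold the partners of the mitochondrial products. Of 80 tested nuclear subunits of the respiratory chain, 1 rose and 1 fell between GFP+ and GFP− cells, Cox8a of complex IV by 0.75 (edgeR adjusted p = 0.01237) and Cox7a2l, a factor joining complexes III and IV, by −0.68 (0.003384). Their median difference was 0.04, and over all genes 37.1% were called. Against undivided IgG cells 4 rose and 3 fell with a median of 0.19, against 34.2% of all genes called. Those that rose were Cox8a (0.93), Ndufb8 of complex I (0.67), Cox5b of complex IV (0.64) and Atp5d of the ATP synthase (0.60). Those that fell, named because they were few, were Ndufab1 (−0.59) and Ndufb2 (−0.57) of complex I and Cox7a2l (−0.59). Of 78 mitochondrial ribosomal proteins 5 rose and 4 fell between GFP+ and GFP− cells, a smaller share than the 20.7% and 16.5% of all genes, among them Mrps5 (−0.95), Mrps18b (−0.83), Mrpl23 (−0.82) and Mrpl51 (0.67). Without GFP+ replicate 2 these counts were 2 and 7, and those of the respiratory subunits 0 and 1. No member of any of these 6 nuclear lists was called by edgeR in the 4 comparisons without GFP+ cells, where 0.0142% to 0.761% of all genes were called.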

How the data were processed

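Estimated counts per gene, the only unit used, were deposited by the authors in 1 table. The submitters' processing notes name the GRCm39 build with Salmon 1.5.2 and STAR 2.7.10a, and also Trim Galore 0.6.7 and cutadapt 3.4. The roles and order of these tools and the gene annotation are not given in the sources used here. An estimated count divides reads that match several genes, which bears on the nuclear copies. Names of 13 columns matched 1 labelled sample each, and the other 34 library columns were not used. Counts were rounded to whole numbers. Totals were 6080956 to 10881129 per library, and floors of 3 counts cover counting error only.

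The test was that of edgeR 4.0.16 under R 4.3.3 (TMM, filterByExpr, which kept 14059 genes, robust quasi-likelihood test, two-sided, Benjamini-Hochberg adjustment over all genes, threshold 0.05) in 1 model of 13 libraries and 5 groups with 8 residual degrees of freedom. SE is the log2 change divided by the square root of F. Levels are TMM-scaled CPM, and shares are of the raw total. The labels do not say that replicates are separate animals, so a p-value reflects only how far these libraries spread, which may be technical. Deviations from group means correlated at 0.317, 0.112 and 0.061 in the 3 GFP+ and GFP− pairs with a shared prefix. In pairs without a shared prefix the correlation ran from −0.255 to 0.155, which overlaps those values.

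The members, gene lists and naming rule were chosen with earlier results of these data known. Values in every library are given for members called in a comparison, both ribosomal RNAs and mt-Nd6, and for mt-Co3, added after its values were seen. mt-Nd2 in the plot by group was likewise picked afterwards. Of each nuclear list, up to 4 called genes with the largest change are named per comparison described, plus Tfam, Polrmt, Lrpprc and Ppargc1a. All 37 gene IDs matched GENCODE M21 on GRCm38, which is older than the authors' build and gave coordinates, sequences and, with BLAST 2.17.0 (at least 100 bases at 90% identity), the nuclear copies. The test was tested on simulated data for 14059 genes in the design of GFP+ against GFP−. Of 67, 67 and 66 genes changed 1.5-fold, 2-fold and 4-fold it recovered 23, 49 and 64, with 5 false calls. The simulation changed 200 genes, far fewer than the 5220 called between GFP+ and GFP− cells, drawn without regard to the spread of the members. Its recovery therefore does not give the sensitivity for the members. Alternatives were DESeq2 1.42.0, limma-voom (limma 3.58.1), other scalings, no filter, groups fitted alone, a replicate block, each library left out and, chosen after seeing the data, the copies added.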

Additional observations from a re-analysis of the deposited data

How the results depend on the processing

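Counts of called members, in brackets the number with all libraries: for GFP+ against GFP− cells (0), DESeq2, limma-voom, upper-quartile scaling, scaling by library size alone and the groups fitted alone each gave 1, and leaving out each library gave 0 to 1. For GFP+ against undivided IgG cells (1), DESeq2, upper-quartile scaling, library size alone and the added copies each gave 2, and leaving out each library gave 1 to 2. For treated Eomes-TKO against GFP+ cells (1), the added copies gave 2, the groups fitted alone 0, and leaving out each library 0 to 1. Upper-quartile scaling moved the median of all genes by −0.14, −0.14 and 0.16 in these comparisons, taken in this order. Of all genes, edgeR with all libraries called 5220, 4809 and 4859 in the same order. DESeq2 called 5150, 4837 and 4823, limma-voom 5197, 4811 and 4658, and upper-quartile scaling 5281, 5080 and 5145. Library size alone called 5106, 4800 and 4824, the groups fitted alone 5045, 4212 and 3340, and the added copies 5202, 4803 and 4852. Leaving out each GFP+ or GFP− library called 4188 to 4612 between GFP+ and GFP− cells.

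Leaving out the filter on low counts raised the genes tested from 14059 to 23638. The called members were then 11, 13 and 10 in those comparisons, where 5423, 5065 and 5146 of all genes were called. Called members were 10 for Eomes-TKO against Eomes-GFP under IgG (112 of all genes) and 8 for 4-1BB against IgG in Eomes-TKO mice (258). For treated Eomes-TKO against GFP− cells 2 were called (220), and for GFP− against undivided IgG cells 3 (521). The median SE of the 15 members fell from 0.835 to 0.135 in that fit. The cause was not tested.

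Scaling to the summed messengers themselves left 0 calls in both comparisons with a call and turned mt-Co1 to 0.027 (edgeR adjusted p = 0.9485) against undivided IgG cells and to −0.0088 (0.9846) for treated Eomes-TKO against GFP+ cells. It called 4796 and 3169 of all genes and moved their median by 0.72 and −0.49. mt-Co1 supplies most of this scale, so its own difference is reduced by construction. The differences of mt-Co1 are therefore relative to nuclear genes.

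Adding the copies moved the mean share of counts to 1.66% in GFP+ cells, 2.31% in GFP− cells, 2.725% in undivided IgG cells, 2.39% in treated Eomes-TKO cells and 2.305% in Eomes-TKO IgG cells, and the mt-Co1 part of messenger counts to 49.3% in GFP+, 45.15% in GFP−, 48.99% in undivided IgG, 48.1% in treated Eomes-TKO and 54.7% in Eomes-TKO IgG cells. The replicate block was the shared prefix, read as 1 animal, for GFP+ against GFP− cells and elsewhere only a shared number. With it the calls of members were 0, 1 and 1 in the first 3 comparisons, where 5157, 4982 and 4967 of all genes were called. The block thus changed no count of called members, also not in the other 4. With 2 or 3 libraries per group, the spread between replicates limits the precision for the members other than mt-Co1 and the sum of mt-Co3 and its copy.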

Other observations

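Lars2, which encodes the mitochondrial ligase for leucine and belongs to the list of transfer RNA ligases, followed the same libraries as the ribosomal RNAs. It was at 286, 16.4 and 439 CPM in GFP+ cells, 296.5, 1272 and 275 in GFP− cells, 138 and 255 in undivided IgG cells, 83.2 and 296 in treated Eomes-TKO cells and 102.3, 116 and 69.1 in Eomes-TKO IgG cells. GFP+ replicate 2 was lowest and GFP− replicate 2 highest, as for mt-Rnr1, mt-Rnr2 and Rn18s-rs5. No comparison called Lars2 (edgeR adjusted p from 0.3752 to 1), and it was singled out after its values were seen. No annotated Lars2 transcript appeared among the matches of at least 100 bases at 90% identity to the mitochondrial genes. That search covered only the mitochondrial genes, so sequence shared between Lars2 and cytosolic ribosomal RNA was not looked for.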
